A study of Homo sapiens with 24 samples.

Results

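The 4 human HOX gene clusters were mapped in RD cells, an established line of fusion-negative rhabdomyosarcoma, a soft tissue tumour with features of skeletal muscle. Every peak overlapping 1 of 4 windows of the hg19 build was taken: HOXA at chr7:27100001-27270000 (170 kb), HOXB at chr17:46580001-46830000 (250 kb), HOXC at chr12:54310001-54470000 (160 kb) and HOXD at chr2:176930001-177080000 (150 kb). This gave 434 peaks of the 564552 in 14 peak lists, with 82 in HOXA, 150 in HOXB, 127 in HOXC and 75 in HOXD.

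The study used chromatin immunoprecipitation and sequencing (ChIP-seq), in which the DNA fixed to a protein is pulled down with an antibody and the places where it piles up are called as peaks. Acetylated lysine 27 of histone H3 (H3K27Ac, a mark of active promoters and enhancers), MYOD (the factor that drives muscle differentiation) and SMARCA4 (the ATPase of the SWI/SNF chromatin remodelers, pulled down with an antibody to its other name, BRG1) were each profiled in 2 control libraries and 2 libraries labelled TWIST2 KD, the knockdown of TWIST2. The first 2 targets belong to a set named RD-1 and SMARCA4 to a set named RD-2. In RD-1, TWIST2 itself, a basic helix-loop-helix factor of mesenchymal cells, was mapped through a triple Ty1 tag (3xTy1-TWIST2) in 2 libraries, with no control or knockdown label. No Ty1 library of untagged cells was among the samples. How TWIST2 was knocked down, what sets RD-1 and RD-2 apart and whether the 2 libraries of a group came from separate cultures are not given in the sources used here, so the spread between them may be technical.

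HOX genes encode homeodomain factors that give cells their position along the body axis. Within a cluster they lie in the order in which they are used: low-numbered genes act towards the head and early, high-numbered genes towards the tail and the ends of limbs, and genes with the same number in different clusters are paralogs. All 38 named HOX genes were found in the RefSeq gene table, which was used for their order only because its build differs from that of the peaks. HOXA2 lies at the low-coordinate end of its window and HOXA13 at the high end, and HOXB likewise runs from HOXB1 to HOXB13. HOXC and HOXD run the other way, from HOXC13 to HOXC4 and from HOXD13 to HOXD1. No peak was assigned to a single gene, and the files hold no expression values.

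MYOD and TWIST2 belong to the protein family that binds E-boxes, the 6-base motif CANNTG, so the promoters of the HOX genes were searched for it. RefSeq promoters (GRCh38.p14, the 250 bases before the gene start) were matched for 20 of the 38 genes, and they hold 19 distinct sequences because HOXC4 and HOXC5 share one. No promoter was matched for HOXA5, HOXB2, HOXB3, HOXB4, HOXB5, HOXB6, HOXB7, HOXB8, HOXB9, HOXB13, HOXC13, HOXC12, HOXC11, HOXC10, HOXC9, HOXC8, HOXC6 or HOXD9. The sequence with the most E-boxes in each cluster is shown, in lower case with the E-boxes in capitals and read 5′ to 3′ on the gene's strand, because MYOD and TWIST2 both bind this motif. For HOXD it is 1 of 2 promoters tied at 2 E-boxes. They lie at chr7:27156676-27156925 (minus strand), chr17:48531012-48531261 (minus), chr12:54016638-54016887 (plus) and chr2:176116528-176116777 (plus) of GRCh38.p14.
HOXA7: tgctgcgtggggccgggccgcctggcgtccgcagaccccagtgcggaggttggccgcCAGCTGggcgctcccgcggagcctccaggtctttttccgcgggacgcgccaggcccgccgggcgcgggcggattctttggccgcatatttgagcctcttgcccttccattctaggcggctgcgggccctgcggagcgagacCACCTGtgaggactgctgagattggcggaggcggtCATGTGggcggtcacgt
HOXB1: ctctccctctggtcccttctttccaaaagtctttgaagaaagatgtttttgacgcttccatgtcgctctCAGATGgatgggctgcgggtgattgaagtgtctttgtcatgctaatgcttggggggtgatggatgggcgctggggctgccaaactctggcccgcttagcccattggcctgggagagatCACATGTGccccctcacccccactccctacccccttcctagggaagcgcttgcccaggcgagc
HOXC4: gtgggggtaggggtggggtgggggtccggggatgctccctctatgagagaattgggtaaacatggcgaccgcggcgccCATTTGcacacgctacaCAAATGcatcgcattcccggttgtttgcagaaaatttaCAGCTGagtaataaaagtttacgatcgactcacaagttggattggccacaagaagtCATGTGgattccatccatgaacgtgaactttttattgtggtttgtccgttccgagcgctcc
HOXD10: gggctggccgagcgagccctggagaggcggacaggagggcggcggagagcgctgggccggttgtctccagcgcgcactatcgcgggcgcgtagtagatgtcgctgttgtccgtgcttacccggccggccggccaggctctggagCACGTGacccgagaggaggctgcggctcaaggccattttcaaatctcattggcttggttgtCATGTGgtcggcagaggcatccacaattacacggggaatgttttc
HOXA7 and HOXB1 hold 3 E-boxes each, of which the last 2 of HOXB1 overlap. HOXC4 holds 4, the most of any matched HOX promoter, and HOXD10 holds 2.

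At least 1 E-box was present in 17 of the 20 matched HOX promoters (85.0%) and in 62.2% of all 27305 promoters of the same length. CAGCTG, an E-box form favoured by MYOD, was found in 4 HOX promoters (20.0%, against 13.8% of all): HOXA6, HOXA7, HOXC4 and HOXC5. The sequence that HOXC4 and HOXC5 share is counted for both genes, here and among the 17, so these shares are higher than over distinct sequences. CACGTG, the form favoured by factors such as MYC and USF, was found in 7 (35.0%, against 6.49% of all): HOXA4, HOXA9, HOXD1, HOXD3, HOXD10, HOXD11 and HOXD13. CATATG, a form described for TWIST factors, was found in HOXA9 alone (1 of 20, against 2.61% of all). These motifs read the same on both strands and are each a case of CANNTG. HOX promoters held a median of 20.5 CpG dinucleotides, against 11 over all promoters, at a similar GC content (59.0% against 58.0%). The matches describe letters in these windows and were not placed on the peaks.

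The H3K27Ac lists held 36679 and 34932 peaks in the controls and 48022 and 46822 after knockdown. MYOD lists held 44974 and 43381 in the controls and 52510 and 48003 after knockdown, and the tagged TWIST2 lists 74087 and 71100. SMARCA4 control 2 stood apart, with 25013 peaks and 1.83% of its tags in peaks, while the other SMARCA4 lists held 11835 to 14676 peaks with 0.65 to 0.88%. SMARCA4 libraries held 36095336 to 46690705 tags. The depth of the other libraries is not known, since their lists carry positions only.

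In the control cells the 4 clusters were active in different parts. Over the windows together, H3K27Ac peaks covered 179 and 173 kb, or 24.5% and 23.7% of the windowed length. HOXB, the longest window, held the largest length (83.5 and 81.4 kb), followed by HOXC (57.4 and 54.5 kb), HOXA (32.7 and 32.2 kb) and HOXD (5.18 and 5.21 kb). As a share of the window, HOXC came first (35.9% and 34.1%), then HOXB (33.4% and 32.5%), HOXA (19.2% and 18.9%) and HOXD (3.46% and 3.47%). Each of these orders was the same in all 4 libraries.

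Each window was divided into 3 parts of equal length to place the mark along the gene order. In HOXA the part next to HOXA2 held no H3K27Ac peak in either control, and the part next to HOXA13 held 57.7% and 57.1% of the covered bases, with the rest in the middle. HOXB was the reverse: the part next to HOXB1 held 54.4% and 53.0%, and the part next to HOXB13 held 15.2% and 14.3%. The HOXB1 end itself was nearly empty. Its first 30 kb held peaks of 501 and 1288 bp in control 1 and of 501 bp in control 2, and wide coverage began at 33.6 kb. HOXC had peaks in all 3 parts, most in the middle (60.0% and 62.1%), and none in the outermost 20 kb on either side. HOXD had H3K27Ac almost only next to HOXD13, in regions at chr2:176957044-176959142 and chr2:176960599-176963002 and a small one at chr2:176944729-176945631, with a single further peak of 501 bp in control 2. Most of the HOXD cluster thus lay outside any H3K27Ac peak in all 4 libraries.

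**Figure D1:**
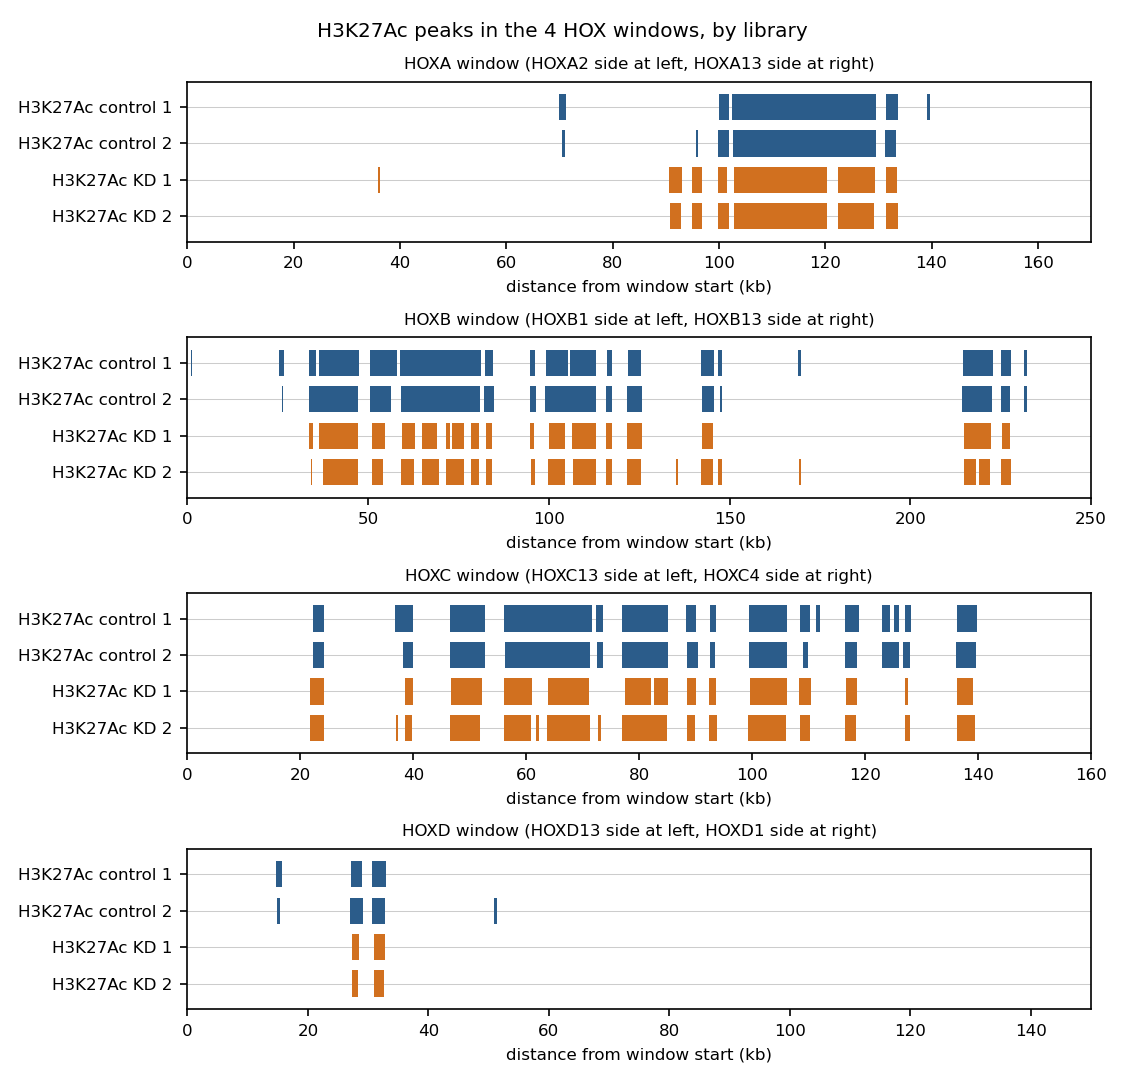
H3K27Ac peaks of each of the 4 libraries (rows; blue, control; orange, TWIST2 KD) along the 4 HOX windows, with the distance from the window start in kb on the x axis and peaks drawn to scale. The HOXA peaks lie towards HOXA13 and the HOXD peaks towards HOXD13, while HOXB is covered most in the part next to HOXB1. The widest control peaks of HOXA, HOXB and HOXC appear as several peaks in the knockdown libraries.

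The widest acetylated stretch of the 4 clusters lay in HOXA, at chr7:27202506-27229536. It was 1 peak of 26975 and 26874 bp in the controls. Those of HOXB, at chr17:46638912-46661101, measured 22190 and 22065 bp, and those of HOXC, at chr12:54366104-54381588, measured 15451 and 15061 bp. Peaks of 10 kb or more, called broad domains here, numbered 4 and 5 in the controls, of 456 and 417 in the whole lists. Domains of such width are known from clusters of active enhancers and from genes that set cell identity. The widest HOXD peak measured only 2404 and 2104 bp.

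After TWIST2 knockdown, H3K27Ac covered less of the HOX clusters in both libraries, while the lists as a whole covered more of the genome. The 4 windows together held 143 and 146 kb of H3K27Ac peaks after knockdown, against 179 and 173 kb in the controls, a difference of -31.8 kb or -18.1% (control mean 176 ± 3.92 kb, knockdown mean 144 ± 1.80 kb, SD, n = 2 each). Both knockdown libraries lay below both controls, a gap larger than the spread within either group (exact two-sided permutation test, p = 0.333, the smallest that 2 against 2 libraries allow). Joining peaks up to 3000 bp apart brought the difference to -19.2 kb. The design therefore cannot reach 0.05 for this or any other difference given here. Of 92 such comparisons, 50 had this smallest p, and the lowest adjusted p (Benjamini-Hochberg) was 0.613.

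Over the whole lists, H3K27Ac peaks covered 85.5 and 81.6 Mb in the controls and 108 and 105 Mb after knockdown, a mean of 27.2% more. The 500 kb on either side of the 4 windows also held more in total in the knockdown libraries, 216 and 208 kb against 194 and 181 kb. The nearest 50 kb did not: they held 25.9 and 27.2 kb in the controls and 16.3 and 15.7 kb after knockdown. Most of it lay beside HOXB (21.8 and 23.2 kb, 12.6 and 11.9 kb) and the rest beside HOXC (4.14 and 4.06 kb, 3.64 and 3.83 kb). With windows widened by these 50 kb, the difference was -42.4 kb for the 4 windows and -30.9 kb for HOXB. As a share of all covered bases, the HOX windows held 0.209% and 0.212% in the controls and 0.133% and 0.139% after knockdown. The direction in the clusters was thus opposite to that of the lists and of the 500 kb flanks in total. It was the same as in the 50 kb next to HOXB and next to HOXC. In tiles of 200 kb over the genome, both knockdown libraries covered less than both controls in 17.2% of 9639 tiles, and with a ratio of means under 0.8 in 9.37%, while both covered more in 66.0%. The median ratio over tiles was 1.26. No minimum coverage was asked of these tiles, and 8695 of them had H3K27Ac bases in the controls. The rest could not be lower after knockdown yet count in the 9639. The lists give no peak heights for H3K27Ac, so the length covered is the only measure of the mark here.

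**Figure D2:**
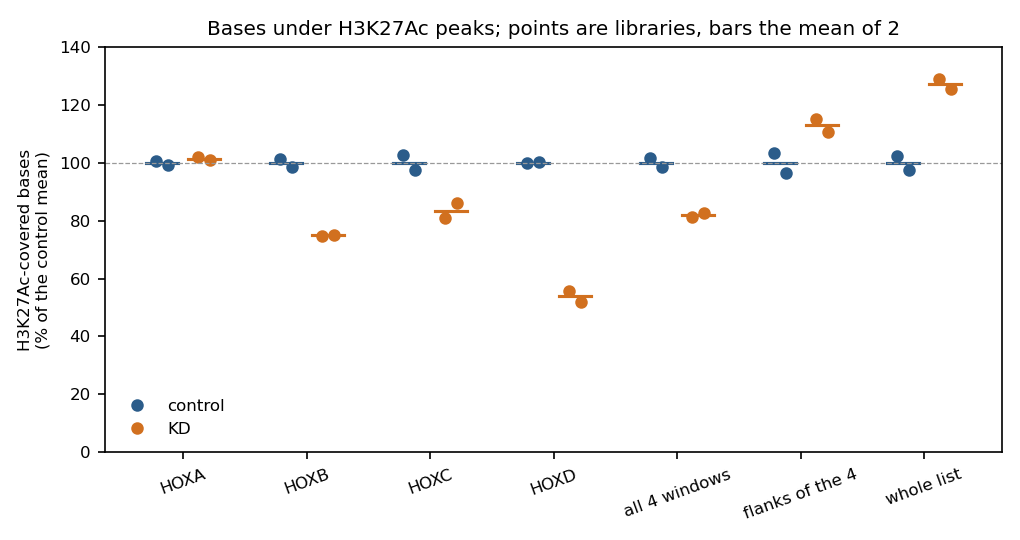
Bases under H3K27Ac peaks in each library (points; blue, control; orange, TWIST2 KD; horizontal bars, the mean of 2 libraries) as a percent of the control mean, for each HOX window, the 4 windows together, their flanks of 500 kb on each side and the whole peak list. HOXB, HOXC and HOXD lie at 75.0%, 83.4% and 53.9% of the control mean after knockdown, HOXA at 101%, the flanks at 113% and the whole list at 127%.

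The clusters differed in how far the knockdown libraries lay from the controls. HOXB went from 83.5 and 81.4 kb to 61.7 and 61.9 kb (-25.0%), HOXC from 57.4 and 54.5 kb to 45.3 and 48.1 kb (-16.6%), and HOXD from 5.18 and 5.21 kb to 2.89 and 2.70 kb (-46.1%). HOXA stayed near its control level, with 32.7 and 32.2 kb in the controls and 33.1 and 32.8 kb after knockdown (1.48% more). Its difference of 0.48 kb became 6.76 kb when peaks up to 3000 bp apart were joined. In each of HOXB, HOXC and HOXD both knockdown libraries lay below both controls, and in HOXA both lay just above (exact permutation p = 0.333 in each). Whether the clusters differed from each other in this was not tested.

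The number of peaks overlapped between the groups, and the difference lay in the width they covered. Peaks in the 4 windows numbered 42 and 37 in the controls and 40 and 44 after knockdown, and these ranges overlap. Broad domains numbered 4 and 5 in the controls and 2 and 1 after knockdown (a mean difference of -3, or -1.5 with joined peaks), while the whole lists held 464 and 432 of them after knockdown, close to the control lists. The widest peak was narrower in both knockdown libraries in every cluster: 17488 and 17498 bp in HOXA, 10748 and 9480 bp in HOXB, 7270 and 7960 bp in HOXC, and 1736 and 1614 bp in HOXD. Over the whole lists the median peak width was also lower, 1835 and 1870 bp in the controls and 1757 and 1777 bp after knockdown. How often wide control peaks narrow or split elsewhere in the genome was not counted.

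Peaks of the 4 H3K27Ac libraries that overlapped by at least 1 bp were merged into regions, 44 in all, and each region was classed by where it had a peak. Shared regions, with a peak in all 4 libraries, numbered 28. Of all regions in the lists, 49.1% were shared. Among the 28 shared HOX regions the covered bases were lower in both knockdown libraries than in both controls in 18 (64.3%), higher in 4 (14.3%) and overlapping in 6. The same comparison over all 27442 shared regions gave 29.8% lower and 45.4% higher. Of the 10 shared HOX regions of 5 kb or more, 9 were lower and none was higher, against 35.5% and 48.7% over the lists. The median ratio of knockdown to control coverage was 0.828 in these 10 and 1.05 over the 4306 of that width in the lists. The exception was chr12:54409291-54416201 in HOXC, with 6790 and 6631 bp in the controls and 6513 and 6632 bp after knockdown.

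Whole regions seen only in the controls were few. Control-only regions, with a peak in both controls and in neither knockdown library, numbered 5 of 44 (11.4%), and 4.21% of all regions in the lists were of this class. KD-only regions, the reverse, numbered 1 of 44 (2.27%), where the lists had 19.8%. The other 10 HOX regions had peaks in other combinations of libraries. Counted base by base, 13.3% of the HOX bases covered in any library were control-only and 2.28% KD-only, while the lists had 6.40% and 20.1%. HOXB had 16.6% control-only bases (14.5 kb), HOXC 10.9%, HOXD 25.9% and HOXA 7.69%. KD-only bases made up 9.42% in HOXA, 0.14% in HOXB, 1.09% in HOXC and none in HOXD.

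**Figure D3:**
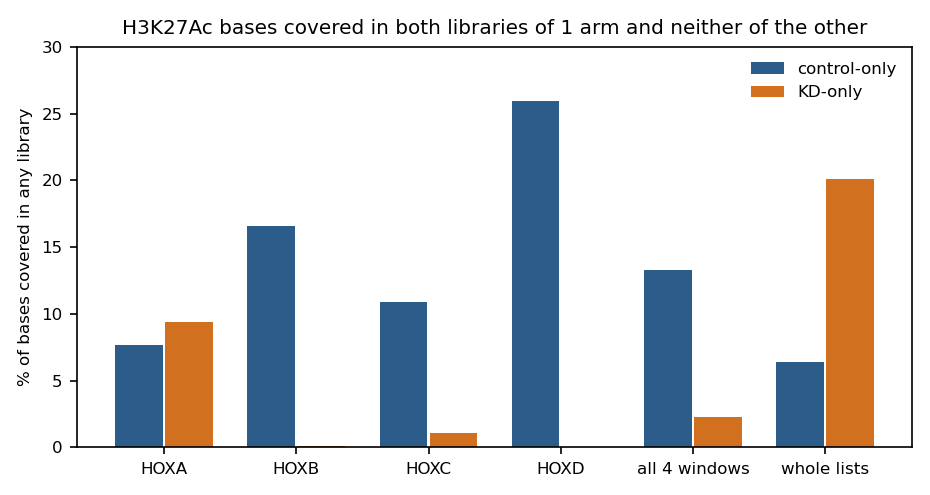
Bases under H3K27Ac peaks in both controls and neither knockdown library (control-only, blue) or the reverse (KD-only, orange), as a percent of the bases covered in any of the 4 libraries, for each HOX window, all 4 windows and the whole lists. Control-only bases exceed KD-only bases in HOXB, HOXC and HOXD, while the whole lists hold 6.40% control-only and 20.1% KD-only bases.

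HOXB held the largest difference in kb. It lay mostly on the side of HOXB1, where the covered length was 45.4 and 43.1 kb in the controls and 30.2 and 29.0 kb after knockdown. The middle part held 25.3 and 26.6 kb against 21.6 and 23.4 kb, and the part next to HOXB13 held 12.7 and 11.6 kb against 9.80 and 9.54 kb. All 3 parts were lower in both knockdown libraries than in both controls.

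The broad HOXB domain at chr17:46638912-46661101 was 1 peak in each control and 5 and 4 peaks after knockdown, which together covered 14341 and 15231 bp. The knockdown peaks fell in the same places in both libraries. They were separated by 3 control-only stretches, at chr17:46642907-46644951 (2045 bp), chr17:46649508-46651408 (1901 bp) and chr17:46656585-46658496 (1912 bp). Just outside the domain on its low-coordinate side, the region chr17:46630405-46638054 covered 7650 and 5821 bp in the controls and 3481 and 3061 bp after knockdown, with a control-only stretch of 1724 bp at chr17:46634633-46636356.

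This domain also held 3 TWIST2 regions with a peak in both Ty1 libraries. One of them, chr17:46650695-46650952, lay inside the middle control-only stretch, where no H3K27Ac peak was called after knockdown. It stood near the top of the Ty1 lists, 3.66% and 6.10% of the way down. The other 2, chr17:46640698-46640978 and chr17:46642547-46642808, stood at 11.1% and 15.2% and at 12.2% and 7.95%, and lay under H3K27Ac peaks in all 4 libraries. What orders the Ty1 and MYOD lists is not stated in them, so a place in a list is given only as such.

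MYOD differed in the same domain. Both controls had MYOD peaks at chr17:46639834-46640148 and chr17:46642560-46642758, and neither knockdown library did. They were the MYOD peaks of the HOX windows nearest the top of the control lists, at 9.39% and 9.04% and at 6.13% and 7.41% of the way down. The second lay on a TWIST2 region, chr17:46642547-46642808. A MYOD peak in both knockdown libraries and neither control lay beside the domain, at chr17:46632661-46632887, and stood at 82.5% and 73.5% of the way down the lists. SMARCA4 had 1 peak in the domain, in knockdown library 1 alone.

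**Figure D4:**
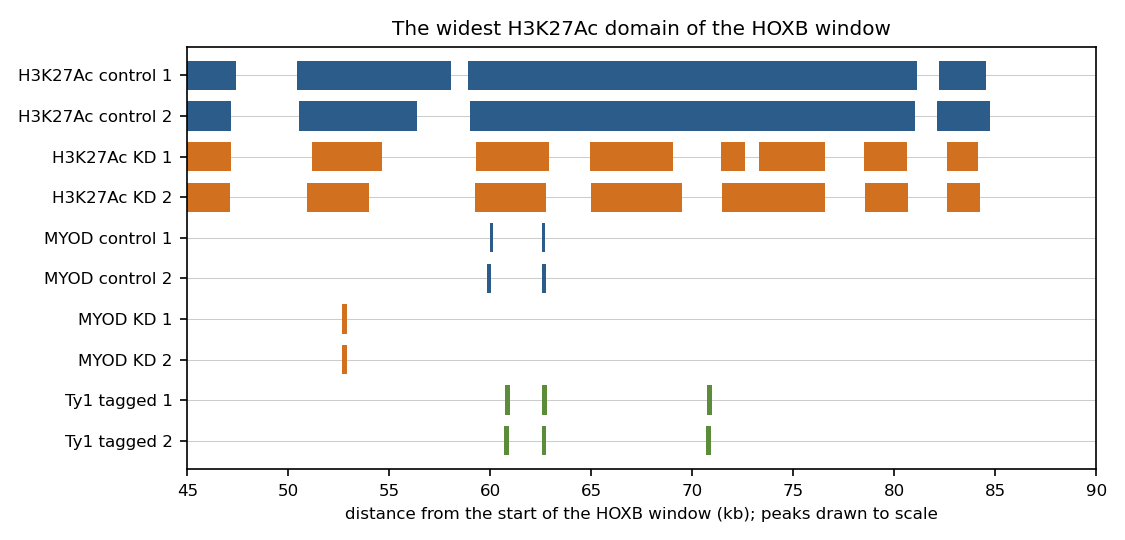
H3K27Ac, MYOD and Ty1 (tagged TWIST2) peaks of each library (rows; blue, control; orange, TWIST2 KD; green, tagged TWIST2) between 45 and 90 kb from the start of the HOXB window, drawn to scale. The control H3K27Ac peak of 22190 and 22065 bp is 5 and 4 peaks after knockdown, the MYOD peaks inside it appear in both controls only, and the TWIST2 peak near 71 kb lies in a gap between knockdown H3K27Ac peaks.

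The other HOXB differences were smaller. Control-only H3K27Ac regions lay at chr17:46605465-46606752 (1288 and 501 bp) and chr17:46811410-46812367 (958 and 771 bp). MYOD kept a peak in all 4 libraries at the first of these, chr17:46605888-46606195, at 13.4% and 29.3% of the way down the control lists and 88.4% and 86.6% down the knockdown lists. A control-only MYOD region, chr17:46812021-46812233, lay in the second, with a peak of knockdown library 1 only 54 bp away in the same H3K27Ac region. The other control-only MYOD regions of HOXB were at chr17:46755865-46756043 and chr17:46806269-46806492, the latter 82 bp from a peak of knockdown library 1, and a KD-only MYOD region at chr17:46715243-46715467. The other broad regions, chr17:46613610-46627382 (12689 and 13524 bp in the controls, 11694 and 9981 bp after knockdown) and chr17:46679062-46693050 (13275 and 13989 bp, 10957 and 11001 bp), were narrower in both knockdown libraries too.

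In HOXA the total was alike but its distribution was not. The broad domain lay across the middle part and the part next to HOXA13, from 103 to 130 kb of the window. No H3K27Ac peak lay beyond 140 kb in any library. The domain was 1 peak in each control and 2 peaks after knockdown, separated by a control-only stretch of 1991 bp at chr7:27220350-27222340. The part next to HOXA13 covered 18.9 and 18.4 kb in the controls and 16.2 kb in both knockdown libraries. The middle part covered 13.8 kb in both controls and 16.4 and 16.6 kb after knockdown. Both parts differed by more than the spread between libraries, in opposite directions.

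The middle part of HOXA held the only KD-only H3K27Ac region of the 4 clusters, chr7:27190660-27192964 (2305 and 2212 bp). A TWIST2 region in both Ty1 libraries, chr7:27190413-27190702, touched its low-coordinate edge, with MYOD peaks in both controls and knockdown library 2. The neighbouring region chr7:27194870-27196837 measured 1950 and 1855 bp after knockdown and had a peak of 501 bp in control 2 only. A control-only H3K27Ac region lay at chr7:27169857-27171131 (1275 and 636 bp), with MYOD peaks inside it in all 4 libraries. Control-only MYOD regions were at chr7:27135770-27136030, 60 bp from a peak of knockdown library 2, and at chr7:27183367-27183560. MYOD peaks in HOXA numbered 10 and 9 in the controls and 7 and 6 after knockdown, which do not overlap (exact permutation p = 0.333). Over 6743 genome tiles of 200 kb with 10 or more MYOD peaks, both knockdown libraries lay below both controls in 9.95% and above both in 27.8%.

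HOXA also held the single site with peaks of MYOD and SMARCA4 in all 8 of their libraries and of TWIST2 in both Ty1 libraries. The SMARCA4 libraries belong to RD-2 and the others to RD-1, so binding in the same cells is not shown. It lay at chr7:27146278-27146579, on the HOXA2 side of the active domain, and no H3K27Ac peak covered it in any library. SMARCA4 peaks there had fold enrichments over input of 7.24 and 8.10 in the controls and 5.26 and 5.48 after knockdown, the authors' own values for each peak. TWIST2 stood at 19.3% and 32.9% of the way down the Ty1 lists.

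HOXC was acetylated along its length and kept most of its regions, 12 of 15 being shared. Its widest region, chr12:54366104-54381588, was 1 peak in each control and 2 and 3 peaks after knockdown, with a control-only stretch of 1397 bp at chr12:54372274-54373670. The part next to HOXC4 covered 11.8 and 10.9 kb in the controls and 7.52 and 7.57 kb after knockdown. It held the control-only region chr12:54432984-54436080, which measured 2384 and 3097 bp and was the widest of its class in the 4 clusters. A control-only MYOD region, chr12:54435162-54435391, lay inside it.

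In HOXC, MYOD had more and SMARCA4 fewer peaks in both knockdown libraries than in both controls. MYOD peaks numbered 7 and 9 in the controls and 12 and 11 after knockdown, and SMARCA4 peaks 5 and 6 in the controls and 1 and 3 after knockdown (exact permutation p = 0.333 for each). MYOD lists were 13.8% longer after knockdown on average, and 27.8% of the MYOD tiles were higher in this way. Few of the MYOD calls repeated at the same place. Of 22 merged MYOD regions in HOXC, 1 was KD-only (4.55%, against 9.10% in the lists), 1 control-only and 1 shared. Of 2407 tiles with 10 or more SMARCA4 peaks, 19.2% were lower and 2.83% higher, with the longest SMARCA4 list, control 2, on the control side. Nearly all MYOD peaks here lay on an H3K27Ac peak of at least 1 library, 7 of 7 and 9 of 9 in the controls and 11 of 12 and 11 of 11 after knockdown. Control-only SMARCA4 regions lay at chr12:54332692-54333000, 305 bp from a peak of knockdown library 1, and at chr12:54348766-54349030, and MYOD had a peak in all 4 libraries at the second. At chr12:54399805-54400146 MYOD was KD-only, on an H3K27Ac region shared by all 4 libraries, and SMARCA4 had peaks there in both controls and knockdown library 2.

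Factor peaks were spread more widely along HOXD than H3K27Ac peaks were, though they covered fewer bases, and few of them repeated. Of 19 MYOD regions in HOXD, 1 was called in all 4 libraries (5.26%, against 20.3% in the lists). Of 12 SMARCA4 regions none was (1.11% in the lists). This was not particular to HOXD. In HOXC 1 of 22 MYOD regions (4.55%) and in HOXB 2 of 24 (8.33%) were shared, with no shared SMARCA4 region in either. HOXA had 3 of 15 MYOD regions (20.0%) and 1 of 14 SMARCA4 regions (7.14%) shared. MYOD peaks numbered 9 and 9 in the controls and 9 and 7 after knockdown. They spread from 10.3 kb of the window, in control 2 alone, to 142 kb, in a KD-only region. Of these peaks, 4 and 3 in the controls and 4 and 2 after knockdown lay on an H3K27Ac peak of any library (28.6 to 44.4%). Over the lists, 75.6 to 82.2% of all MYOD peaks did. SMARCA4 had 5 and 6 peaks in the controls and 5 and 3 after knockdown, of which 2 and 3, and 3 and 1, lay on H3K27Ac. These were 33.3 to 60.0% of so few peaks, while 69.0 to 79.4% of all SMARCA4 peaks in the lists lay on H3K27Ac.

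The H3K27Ac that HOXD did have, next to HOXD13, was narrower after knockdown. The region chr2:176957044-176959142 measured 1877 and 2099 bp in the controls and 1158 and 1088 bp after knockdown, and chr2:176960599-176963002 measured 2404 and 2104 bp against 1736 and 1614 bp. Within them lay some of the SMARCA4 peaks with the highest scores in their own lists: at chr2:176957903-176958109 the score stood within the top 1.95% and 2.05% of the control lists and 1.65% of knockdown list 2. A control-only MYOD region, chr2:176962355-176962533, lay in the second.

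A TWIST2 site lay further towards the HOXD13 end. H3K27Ac at chr2:176944729-176945631 was control-only (903 and 501 bp). Within it lay a TWIST2 region, chr2:176945215-176945515, and a MYOD region that was KD-only, chr2:176945050-176945318. MYOD was also called beside it in both controls and knockdown library 1, at chr2:176944587-176944860, which overlaps the same H3K27Ac region. The nearest control peak was 189 bp from the KD-only region. A SMARCA4 peak was called there in knockdown library 1 only.

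SMARCA4 was control-only at 3 further sites in the middle of HOXD, chr2:176981077-176981271, chr2:176987479-176987711 and chr2:176994294-176994505. The middle part of HOXD held 4 and 4 SMARCA4 peaks in the controls and 2 and 1 after knockdown, 1 of them 163 bp from the second of these sites. The part next to HOXD13 held 1 and 2 against 3 and 1, and counts over the whole window overlapped. Such parts were not counted over the genome, where 19.2% of the SMARCA4 tiles were lower in both knockdown libraries. No H3K27Ac peak lay on the last 2 of the 3 control-only sites, and only control 2 had one on the first. The last had the highest scores of the 3, 63.0 and 51.0, within the top 4.77% and 11.5% of their lists. At the far end, next to HOXD1, TWIST2 region chr2:177071417-177071658 was the highest in the Ty1 lists of any in the HOX windows in library 2 and the second highest in library 1, at 3.27% and 3.88% of the way down. It had no H3K27Ac peak, a KD-only MYOD region (chr2:177071489-177071726, at 99.5% and 79.2% of the way down the lists) and a SMARCA4 peak in knockdown library 2 with a fold over input of 24.3.

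**Figure D5:**
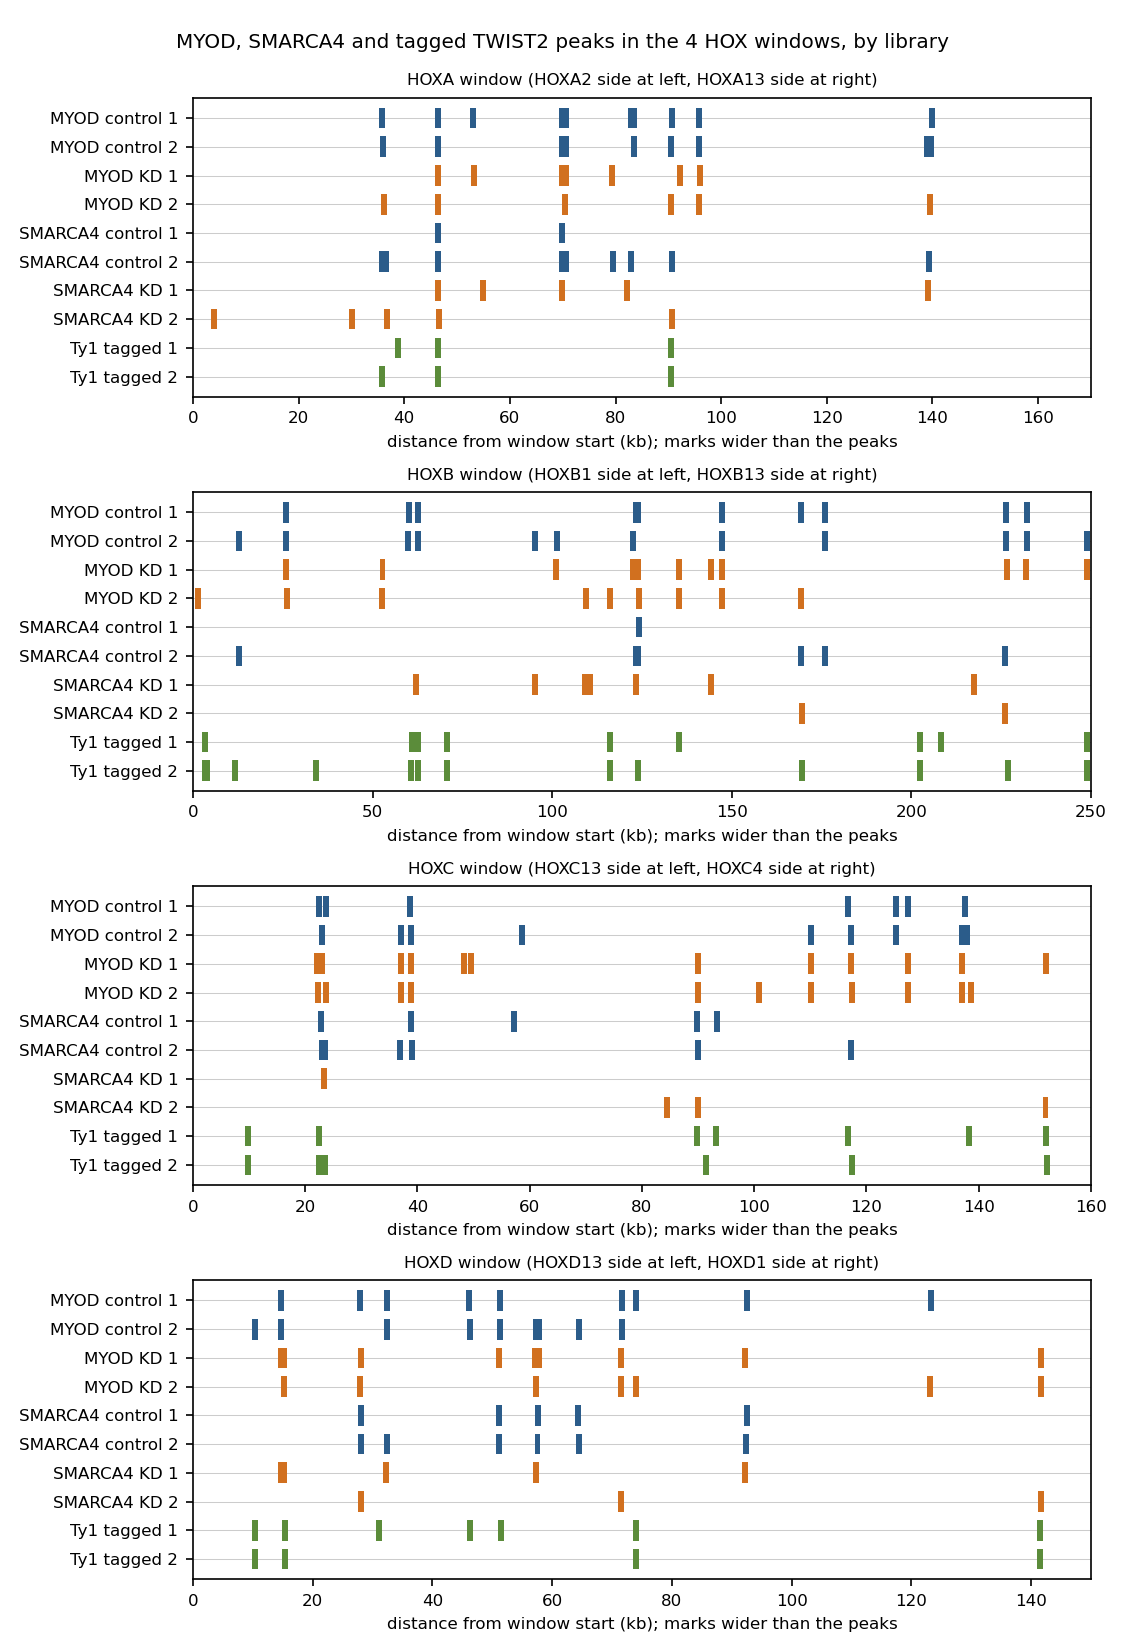
MYOD, SMARCA4 and Ty1 (tagged TWIST2) peaks of each library (rows; blue, control; orange, TWIST2 KD; green, tagged TWIST2) along the 4 HOX windows, with the distance from the window start in kb on the x axis; marks are drawn wider than the peaks. In HOXC, MYOD has 12 and 11 peaks after knockdown against 7 and 9 and SMARCA4 1 and 3 against 5 and 6. In HOXA a site near 46 kb has a peak of each of the 3 factors in every library.

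Over the 4 clusters together MYOD peaks numbered 36 and 39 in the controls and 40 and 33 after knockdown, and the ranges overlap (exact permutation p = 1). Of 80 merged MYOD regions, 9 were control-only (11.3%) and 5 KD-only (6.25%), while the lists had 5.41% and 9.10%. Shared regions numbered 7 (8.75%, against 20.3% in the lists) and the other 59 had a peak in only 1 of the 2 libraries of at least 1 arm. Of the 9 control-only regions, 5 lay in HOXB. A peak of the other arm lay within 500 bp of 3 of the 9 control-only and 1 of the 5 KD-only regions, and merging over such gaps left 7 and 4.

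SMARCA4 calls in the clusters were the least repeatable. Peaks numbered 13 and 27 in the controls and 18 and 13 after knockdown, so control 2, the library that stood apart, set the control mean. The mean difference was -4.5 peaks with it and 2.5 peaks without it. Of 50 merged regions 6 were control-only (12.0%, against 6.68% in the lists), none was KD-only (1.91% in the lists) and 1 was shared (1.11% in the lists). Without control 2, 9 regions were control-only and none KD-only, and without control 1, 18 were control-only. A knockdown peak lay within 500 bp of 3 of the 6 control-only regions, and merging over such gaps left 3. The sixth control-only region, beside those of HOXC and HOXD, lay in HOXB at chr17:46703961-46704158, on an H3K27Ac region shared by all 4 libraries. As a share of their own lists the windows held 0.110% and 0.108% of SMARCA4 peaks in the controls and 0.144% and 0.0886% after knockdown, which overlap.

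The Ty1 lists had 26 peaks each in the windows, 0.0351% and 0.0366% of their peaks. This was 35.6 peaks per Mb in both libraries, and the 500 kb flanks of the single clusters held 21 to 54 per Mb. Merging gave 36 regions. Both Ty1 libraries had a peak at 16 of them, 2 in HOXA, 7 in HOXB, 3 in HOXC and 4 in HOXD. H3K27Ac covered 4 of the 16 in all 4 libraries (25.0%, against 30.4% of the 48591 such regions in the lists), and 3 of the 16 (18.8%, against 38.3%) had no peak of any other target. MYOD was present in all 4 of its libraries at 1 (6.25%, against 16.1%), the HOXA site that also carried SMARCA4.

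At these 16 regions H3K27Ac was control-only at 2 (12.5%, against 1.63% of TWIST2 regions in the lists), the HOXB and HOXD sites described above, and KD-only at none (8.29% in the lists). The TWIST2 region at the edge of the KD-only H3K27Ac region of HOXA is not counted, because it overlapped the peak of knockdown library 1 only. MYOD was control-only at 1 (6.25%, against 2.11%) and KD-only at 2 (12.5%, against 4.23%), and SMARCA4 at none in either direction (2.33% and 0.722% in the lists). These counts rest on 16 regions, and their difference from the lists was not tested. The remaining regions in both Ty1 libraries included chr17:46583267-46583568 at the HOXB1 end (8.7% and 9.54% of the way down) with no other peak, chr12:54332307-54332549 in an H3K27Ac region of all 4 libraries next to HOXC13, and chr2:177003851-177004094 in HOXD with a MYOD peak in 1 library of each arm.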

How the data were processed

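Reads were aligned with Bowtie2 2.3.4.3 to hg19 (GRCh37) and handled with SAMtools 0.1.19, bedtools 2.29.2 and HOMER 4.4, per the submitters' processing notes. The authors deposited 1 peak list for each of 14 libraries, and the 10 input libraries were not analysed here. Lists for H3K27Ac, MYOD and Ty1 hold positions only, as deposited. SMARCA4 lists were made with HOMER findPeaks in factor style, with a false discovery threshold of 0.001 and a 4-fold minimum both over input and over local tags within 10000 bp, per the file headers. They also hold, per the file headers, a tag signal normalised to sequencing depth, a score, fold ratios over input and local tags, and p-values. MYOD, SMARCA4 and Ty1 peaks have 1 fixed width per list (141 to 239 bp), which bears on how readily peaks overlap. The largest peak ends were checked against the hg19 build.

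Peaks were taken where at least 1 bp lay in a window and merged across the libraries of a target where they overlapped by at least 1 bp. Covered bases were counted inside the window. Groups of 2 libraries were compared with exact two-sided permutation tests over libraries (Python 3.11.15, numpy 2.4.6, pandas 2.3.3, scipy 1.17.1); region classes were described beside the same classes over the whole lists. A place in a list is the rank as deposited, from the top, as a percent of the list. The classing was tested on simulated data (20000 regions, the totals of 100% of classes recovered). The simulated regions lay apart from each other, so broad, split or close peaks were not tested. Named regions were all control-only and KD-only regions, the widest shared H3K27Ac region of each window, SMARCA4 regions found in most libraries (up to 8 per window) and TWIST2 regions with other targets or highest in the Ty1 lists; other regions were named after their values were seen. The windows, genes and lists were chosen with earlier results of these data known. Coverage by base, by tile and of shared regions, the nearest 50 kb, the nearest peak of the other arm and the overlap of factors with H3K27Ac were added after the data were examined. Gene order and promoters came from RefSeq (GRCh38.p14). Alternatives were lists cut to equal length, only the first 0.5 of each list (by width for H3K27Ac, by score for SMARCA4), windows widened by 50 kb, peak centres, a gap of 500 bp in merging, an overlap of at least 0.5 of the shorter peak, peaks of 200 bp, a TWIST2 peak in 1 library, each library left out and a replicate block. Libraries with the same number did not deviate together, with correlations over tiles of 0.07 for H3K27Ac, -0.00072 for MYOD and -0.01 for SMARCA4, so numbers were not used as pairs.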

Additional observations from a re-analysis of the deposited data

How the results depend on the processing

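The lower H3K27Ac coverage of the 4 windows together, of HOXB, of HOXC and of HOXD and the lower number of broad domains kept their direction in every alternative run, from -29.1 to -34.6 kb for the 4 windows when 1 library was left out and -42.4 kb in widened windows. Joining H3K27Ac peaks up to 3000 bp apart, an alternative chosen after seeing the data, left -19.2 kb for the 4 windows and -1.5 broad domains, and moved HOXA from 0.48 to 6.76 kb. With the replicate block the test over pairs gave p = 0.5 for the 4 windows (exact, the smallest 2 pairs allow). The block changes only the test and leaves each difference as it was, so it could not turn a direction. Taking peaks by their centre also left every H3K27Ac difference at its main value. Lists of equal length, cut by width for H3K27Ac, lost more peaks from the longer knockdown lists than from the controls. That alternative (-38.0 kb for the 4 windows) leans towards lower knockdown coverage and could hardly turn the direction.

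The number of H3K27Ac peaks, 2.5 more after knockdown, turned to -5 with lists of equal length and to -1.5 with joined peaks. Without control 2 the difference was 0. The number of MYOD peaks, -1, turned to 2 in widened windows and ranged from -4.5 to 2.5 with 1 library left out. The number of SMARCA4 peaks, -4.5, ranged from -11.5 to 2.5, the latter without control 2. The cause was not tested.

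Counts of regions moved more. With lists of equal length, control-only H3K27Ac regions went from 5 to 9 and KD-only MYOD regions from 5 to 3. In the first 0.5 of each list, KD-only regions went to 2 for H3K27Ac and to 2 for MYOD, TWIST2 regions from 16 to 8 and those with H3K27Ac in all 4 libraries from 4 to 2. Joined peaks left 0 KD-only H3K27Ac regions, and merging up to 500 bp left 3 of 6 control-only SMARCA4 regions. TWIST2 regions with H3K27Ac numbered 7 in widened windows. Asking for a peak in at least 1 Ty1 library gave 36 TWIST2 regions, 14 of them with H3K27Ac, and either Ty1 library alone gave 26, with 9. With 1 library left out, the ranges were 1 to 2 KD-only and 5 to 9 control-only regions for H3K27Ac, 8 to 17 and 10 to 18 for MYOD, and 0 to 13 and 7 to 18 for SMARCA4. Fewer libraries must hold or lack a peak for a call there. Of 177 recomputed values, 143 were counted as keeping their direction or staying within 1.5 times. The count includes the values of the replicate block, which equal the main values by construction, and those of peak centres, which came out equal to them. It also includes the H3K27Ac peak difference of 0 without control 2, which has no direction.

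Groups of 2 libraries cannot reach a p of 0.05, lists called per library turn signal into presence or absence, and genes were not placed on peaks.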
